A study of Mus musculus with 4 samples.

Results

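Trp53, the mouse gene of the tumour suppressor p53, and 9 genes that p53 is known to activate (Phlda3, Mdm2, Ccng1, Sesn1, Perp, Zmat3, Trp53inp1, Eda2r and Plk2) were followed in ventricles that overexpress Cdk8. These 10 genes were picked by symbol from a table of 23352 gene symbols, and each occupied a single row. The tissue was ventricle of male C57BL/6 mice at postnatal day 21. One group, Cdk8Tg, carried Cdk8 overexpression restricted to the heart (2 libraries), and the other, WT, was wild type (2 libraries). The sources used here do not name the promoter of the transgene or the number of founder lines, and nothing in the labels states that each library is a separate animal. The p-values thus measure the spread between these libraries, which may be technical.

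p53 is a transcription factor that is kept scarce by the ubiquitin ligase Mdm2 and is stabilised after DNA damage and other stresses. Its targets stop the cell cycle, repair DNA, alter metabolism or promote cell death, and Mdm2 is itself a target, which closes a negative feedback loop. Much of p53 control acts on the protein, so the level of Trp53 RNA is not a measure of p53 activity. Cdk8 is the kinase of the Mediator complex, which passes signals from transcription factors to RNA polymerase II, and in human cells it has been described as a coactivator at p53 targets.

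Levels are FPKM, fragments scaled to transcript length and sequencing depth, so genes can be compared per length. If each library was scaled by its own total, which is not stated, the spacing of low FPKM values corresponds to roughly 12.95 to 15.45 M (mega) fragments per library. The depths were chosen to bring these same low values closest to whole fragments. That 69.3% to 73.9% of them came within 0.1 of a whole fragment is thus no separate check. At these depths the least abundant member, Zmat3, rested on at least 19.0 fragments per kilobase in each library. Cdk8 itself, the check of the transgene, measured 7309 and 8122 FPKM (Cdk8Tg) and 7.89 and 9.86 FPKM (WT). The libraries had the markers of ventricular muscle (Myl2 between 10760 and 15873 FPKM), while the atrial gene Bmp10 was listed at 0 in all 4. Other atrial genes differed between libraries of 1 group, with Myl7 at 8.51 and 52.7 FPKM in Cdk8Tg against 136 and 11.6 FPKM in WT. The list of 7 atrial markers summed to 872 and 2427 FPKM in Cdk8Tg against 689 and 246 FPKM in WT. By the test described below, 1 of the 6 tested was called higher and 1 lower, beside 16.9% and 7.98% of all rows. The median log2 change of the 6 was -0.44, and it was 0.54 without WT replicate 1. Changes below are log2 differences of FPKM + 1, Cdk8Tg minus WT, from limma with its standard error (SE), adjusted by Benjamini-Hochberg over 11888 rows. A gene was called when that adjusted p was under 0.05. A fit without 1 library leaves 1 in its group and fewer degrees of freedom. A call lost in such a fit thus need not mean that the library left out had set it.

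Of the 10 genes, 3 rose (Phlda3, Eda2r and Mdm2), 2 fell (Sesn1 and Perp) and 5 were not called. Over all tested rows, 16.9% were called higher and 7.98% lower. Counted by ranges, both Cdk8Tg libraries lay above both WT libraries for 6 members and below them for 3, against 49.2% and 21.1% of all rows. The range counts of 6 and 3 are thus close to the background, and the call counts of 3 and 2 are above it but small. The median change over the 10 members was 0.41, beside 0.13 over all tested rows. In the authors' deposited table, which gives a Cuffdiff q-value per gene, 2 members were significantly higher (Phlda3 and Eda2r) and 2 lower (Sesn1 and Perp). The background in that table was 5.53% higher and 8.43% lower.

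**Figure D1:**
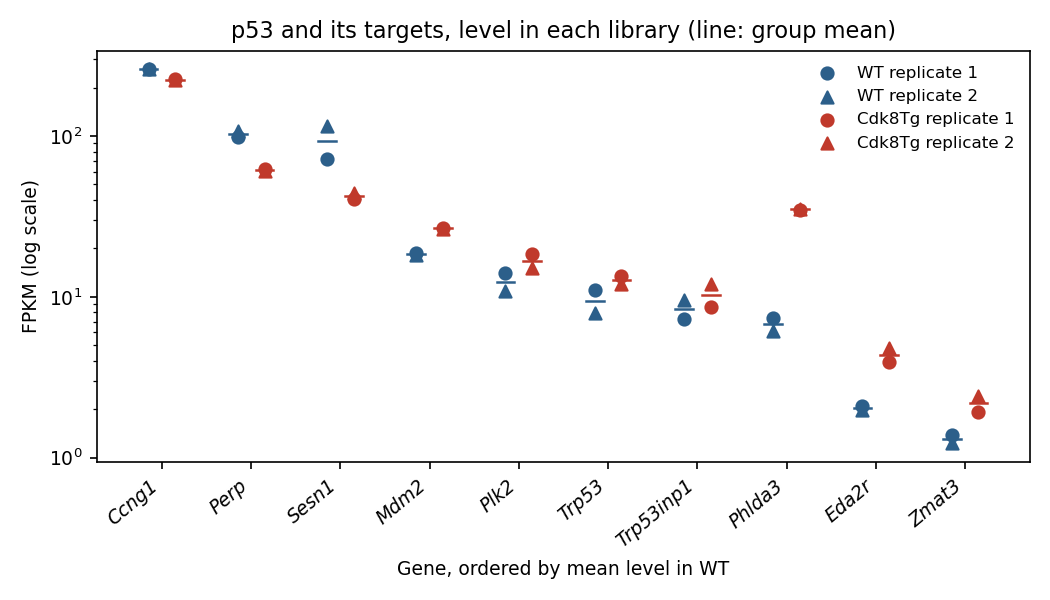
FPKM of each gene (log axis) in the 2 WT libraries (blue) and the 2 Cdk8Tg libraries (red), with circles for replicate 1, triangles for replicate 2 and lines for group means. Phlda3 moved from about 7 to about 35 FPKM, while Ccng1 was the most abundant gene in all 4 libraries.

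Per length, Ccng1 was the most abundant member in both groups. In WT the order of the means was Ccng1 (259 FPKM), Perp (103), Sesn1 (93.4), Mdm2 (18.5), Plk2 (12.4), Trp53 (9.48), Trp53inp1 (8.40), Phlda3 (6.77), Eda2r (2.04) and Zmat3 (1.31). Neighbours in that order whose libraries overlapped were Perp with Sesn1, Plk2 with Trp53, Trp53 with Trp53inp1, and Trp53inp1 with Phlda3. In Cdk8Tg, Phlda3 reached 34.9 FPKM and ranked between Sesn1 at 42.4 and Mdm2 at 26.7. Only Trp53 and Trp53inp1 overlapped among the neighbours in the Cdk8Tg order.

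Trp53 did not pass the test. On GRCm38 the gene lies on chromosome 11 at 69580348 to 69591873, on the plus strand. It measured 13.6 and 12.0 FPKM with the transgene against 11.0 and 7.97 FPKM in WT. The groups did not overlap, yet the gap between them was narrower than the gap between the WT libraries. The change was 0.41 ± 0.16 (SE; adjusted p = 0.11), and it was 0.62 without WT replicate 1 and 0.20 without WT replicate 2. Trp53 was called when the libraries were scaled to an equal FPKM sum (0.59, adjusted p = 0.030). Of the 31-base stretches of Trp53 transcripts, 10.1% also occur in other annotated genes, chiefly the pseudogene Trp53-ps, so a part of its value is uncertain.

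Mdm2, the ligase that marks p53 for degradation, rose modestly. It was at 26.7 and 26.6 FPKM in Cdk8Tg, and WT gave 18.7 and 18.3 FPKM. The means were 26.7 ± 0.113 and 18.5 ± 0.287 (SD, n = 2 per group). The libraries of each group were close together and the groups were well apart, with a 1.44-fold ratio of means. The log2 change was 0.51 ± 0.08 (limma adjusted p = 0.013). This call was lost without WT replicate 1 (adjusted p = 0.070) or WT replicate 2 (0.092), and the authors' deposited table gave Mdm2 a q-value of 0.177. Mdm2 (chromosome 10, 117688875 to 117710758, minus strand) had 1.97 and 2.22 times the FPKM of Trp53 in Cdk8Tg and 1.70 and 2.29 times in WT, ranges that overlap. Its relative Mdm4, which inhibits p53 without being a strong ligase, was at 12.8 and 15.1 FPKM in Cdk8Tg against 12.6 and 11.8 FPKM in WT, with no call (0.18 ± 0.11, adjusted p = 0.27).

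Phlda3 changed most among the members. It encodes a small protein made of little more than a pleckstrin homology domain, which competes with the kinase Akt for membrane lipids. The gene lies on chromosome 1 at 135766085 to 135769134, plus strand. Its level was 34.9 and 35.0 FPKM with the transgene against 7.42 and 6.13 FPKM in WT. The groups were far apart, with a 5.16-fold ratio of means, and the Cdk8Tg libraries were nearly identical. The log2 change was 2.21 ± 0.11 (SE, n = 2 per group; limma adjusted p = 0.0013). By change, Phlda3 stood at the 99.8th percentile of all tested rows. It was called higher in all 15 alternative analyses, with changes between 1.76 and 2.40, and in the authors' deposited table it rose 4.63-fold (q = 8.6e-04). None of its 31-base stretches occurs in another annotated gene.

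Eda2r was the other clear rise. It encodes a receptor of the tumour necrosis factor family that binds the A2 form of ectodysplasin, and it lies on the X chromosome at 97333837 to 97377234, minus strand. Its libraries were at 3.92 and 4.79 FPKM (Cdk8Tg) and 2.09 and 1.99 FPKM (WT). Both Cdk8Tg values were well above both WT values (2.14-fold ratio of means, log2 change 0.81 ± 0.13, limma adjusted p = 0.014). The call was lost without WT replicate 1 (adjusted p = 0.068), without WT replicate 2 (0.087) and with no filter on low values (0.052). Its ligand gene Eda was low, at 1.51 and 1.51 FPKM in Cdk8Tg against 1.17 and 1.03 FPKM in WT, with no call (adjusted p = 0.19). The sister receptor gene Edar stayed under 0.27 FPKM in every library and was not tested.

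**Figure D2:**
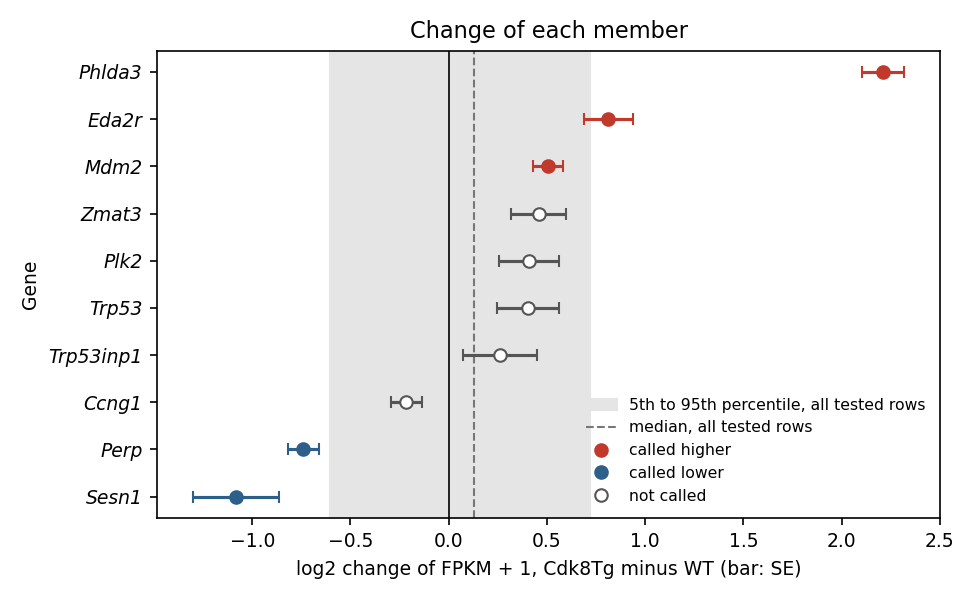
Change of each gene (log2 of FPKM + 1, Cdk8Tg minus WT) with its SE, where filled points were called; the grey band spans the 5th to 95th percentile of all tested rows (-0.60 to 0.72) and the dashed line their median. Phlda3 and Eda2r lie above the band, Sesn1 and Perp below it.

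Sesn1 and Perp went the other way. Sesn1 encodes a sestrin, a stress protein that restrains mTORC1 when leucine is scarce and is also a known target of FoxO factors. It lies on chromosome 10 at 41810574 to 41908436, plus strand. Sesn1 was at 40.5 and 44.3 FPKM with the transgene against 71.7 and 115 FPKM in WT. Both Cdk8Tg libraries were below both WT libraries, but the WT libraries differed widely from each other. The mean was 2.20-fold lower in Cdk8Tg (log2 change -1.08 ± 0.22, limma adjusted p = 0.025), and the authors' deposited table gave q = 8.6e-04. The call was lost without Cdk8Tg replicate 1 (adjusted p = 0.064), Cdk8Tg replicate 2 (0.065) or WT replicate 2 (0.061, change -0.75), and with no filter on low values (0.084).

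The other sestrins did not follow Sesn1. Sesn2 rose from 0.952 and 1.32 FPKM in WT to 2.51 and 2.15 FPKM in Cdk8Tg (0.64 ± 0.15, limma adjusted p = 0.033). Sesn3 rose from 4.40 and 3.83 to 6.08 and 5.78 FPKM (0.44 ± 0.11, limma adjusted p = 0.037). Both calls ended after median-of-ratios scaling (adjusted p = 0.058 and 0.091), with quantile normalization, with no filter on low values and without any 1 of the 4 libraries. Sesn1 remained the most abundant sestrin in every library, at 75.3 and 87.2 times the FPKM of Sesn2 in WT and 16.1 and 20.6 times in Cdk8Tg.

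Perp, a tetraspan membrane protein of desmosomes, fell with tight replicates. The gene lies on chromosome 10 at 18845071 to 18857073, plus strand. It was at 61.9 and 60.5 FPKM (Cdk8Tg) and 99.2 and 107 FPKM (WT). The mean was 1.68-fold lower in Cdk8Tg (log2 change -0.74 ± 0.08, limma adjusted p = 0.0068), a difference much larger than the spread within either group. The call was lost without WT replicate 2 (-0.69, adjusted p = 0.062), and held in the other 14 alternatives. Markers of ventricular muscle were lower as well, with 7 of 9 called lower, beside 7.98% of all rows. Their summed levels were 38873 and 37015 FPKM in Cdk8Tg against 57923 and 55531 FPKM in WT. With quantile normalization 3 of these markers were called lower and 1 higher, beside 8.74% and 8.34% of all rows. The count of falls was 8 after median-of-ratios scaling and 5 on the equal-sum scale, beside 11.7% and 5.49% of all rows called lower. With no filter it was 2, beside 2.31% of all rows. The median change of these markers was -0.59 with all 4 libraries. It was -0.74 and -0.54 without Cdk8Tg replicate 1 and 2, and -0.58 and -0.67 without WT replicate 1 and 2. The 9 epithelial and mesothelial markers summed to 141 and 139 FPKM in Cdk8Tg against 115 and 128 FPKM in WT, with 0 of 4 tested called. In bulk tissue, fewer cells of a type and less RNA per cell cannot be told apart. The part of cell composition in the falls of Sesn1 and Perp was not tested.

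Ccng1 encodes cyclin G1, which binds regulatory subunits of protein phosphatase 2A and acts on Mdm2. It lies on chromosome 11 at 40748552 to 40755309, minus strand. It was at 225 and 222 FPKM in Cdk8Tg against 259 and 259 FPKM in WT. The groups did not overlap, and the difference was small (1.16-fold lower; log2 change -0.22 ± 0.08, limma adjusted p = 0.099). After median-of-ratios scaling, which removes the shift of all rows, Ccng1 was called lower (-0.36, adjusted p = 0.035), and on the equal-sum scale its change was -0.02. Ccng2, the other cyclin G gene, was at 9.56 and 9.98 FPKM with the transgene against 8.69 and 9.74 FPKM in WT (0.08 ± 0.10, adjusted p = 0.56), and its sign turned after median-of-ratios scaling (-0.06) and quantile normalization (-0.06).

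The remaining members, Plk2, Zmat3 and Trp53inp1, were not called. Plk2 (chromosome 13, 110395044 to 110400844, plus strand) encodes a polo-like kinase that is also induced by serum and neuronal activity. It was at 18.4 and 15.2 FPKM (Cdk8Tg) and 14.0 and 10.8 FPKM (WT), groups that did not overlap but lay close together (0.41 ± 0.15, limma adjusted p = 0.10). Its change was 0.24 without WT replicate 2. Zmat3 (chromosome 3, 32334792 to 32365665, minus strand) encodes a zinc finger protein that binds RNA and alters splicing. Its FPKM were 1.93 and 2.42 in Cdk8Tg against 1.38 and 1.23 in WT (0.46 ± 0.14, limma adjusted p = 0.065), again without overlap. Both Plk2 and Zmat3 were called on the equal-sum scale (adjusted p = 0.025 and 0.024), and Zmat3 also without a variance trend (0.046). In the authors' table Zmat3 has the same locus as 4930429B21Rik, so its value is uncertain. Trp53inp1 (chromosome 4, 11156441 to 11174379, plus strand) encodes a stress protein linked to autophagy and cell death. It was the only member whose groups overlapped, at 8.63 and 12.0 FPKM in Cdk8Tg against 7.27 and 9.52 FPKM in WT (0.26 ± 0.19, limma adjusted p = 0.33). Single libraries set that change, which was 0.48 and 0.05 without Cdk8Tg replicate 1 and 2 and 0.09 and 0.44 without WT replicate 1 and 2. Its paralog Trp53inp2 was far more abundant, at 174 and 204 FPKM with the transgene against 183 and 162 FPKM in WT, also with overlap (adjusted p = 0.42).

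Over the 4 libraries, the profile of Trp53 (log2 values centred on their mean) was closest to those of Zfp273, Rab20 and Scd2 among 11779 genes, with Euclidean distances of 0.04, 0.06 and 0.06. Plk2 was the nearest member, at 0.09. With 2 libraries per group this likeness mostly restates the difference between the groups and the spread within WT.

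How many members rose or fell changed with the scaling of the libraries. As deposited, the median change of all rows was 0.13, and median-of-ratios scaling, quantile normalization and an equal FPKM sum moved it to 0.00, 0.01 and 0.30. Of the members, 3 rose and 3 fell after median-of-ratios scaling, 3 rose and 2 fell with quantile normalization, and 6 rose and 2 fell on the equal-sum scale. All tested rows were called higher and lower at 7.96% and 11.7% after median-of-ratios scaling, 8.34% and 8.74% with quantile normalization, and 41.2% and 5.49% on the equal-sum scale, so the 6 rises there stand beside a much larger background. Phlda3, Eda2r and Mdm2 stayed called higher, and Sesn1 and Perp called lower, under these 3 scalings. No member changed sign in any of the alternatives.

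**Figure D3:**
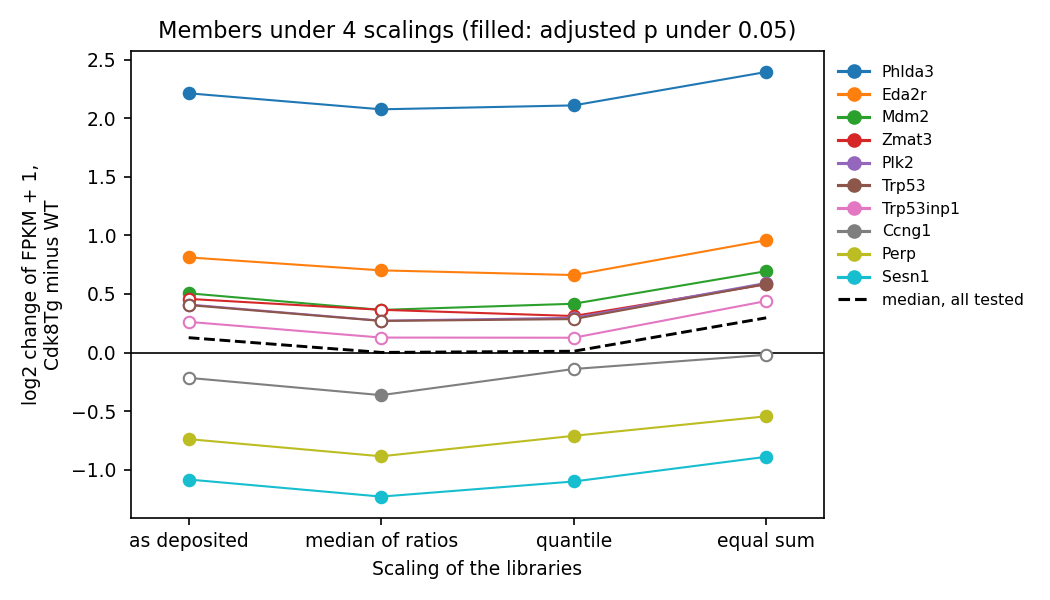
Change of the 10 genes (log2 of FPKM + 1, Cdk8Tg minus WT) under 4 scalings, filled where the adjusted p was under 0.05, with the median of all tested rows dashed; the lines of Plk2 and Trp53 nearly coincide. The order from Phlda3 at the top to Sesn1 at the bottom is nearly the same under each scaling, while the zero line shifts against the genes in the middle.

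Other targets of p53 were read from a list of 50 genes, of which 41 were tested. Of these, 14 rose and 1 fell, shares of 34.1% and 2.44% beside the 16.9% and 7.98% of all rows. The median change of the list was 0.21, beside 0.13 for all rows. The count of rises was 6 after median-of-ratios scaling, 7 with quantile normalization and 23 on the equal-sum scale, with 1 fall in each case. As shares of the 41 tested these have to be read against the 7.96%, 8.34% and 41.2% of all rows called higher under the same scaling. The median change of the list was 0.24 and 0.22 without Cdk8Tg replicate 1 and 2, beside 0.14 and 0.11 for all rows. Without WT replicate 1 and 2 it was 0.23 and 0.21, beside 0.14 and 0.12. With no filter on low values, 4 of 47 rose and 0 fell, beside 3.57% and 2.31% of all rows.

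The 6 rises with the smallest p were Gpx1, Casp6, Fdxr, Bax, Btg1 and Ephx1, and these 6 were the ones called after median-of-ratios scaling too. Gpx1, the cytosolic glutathione peroxidase, was at 168 and 184 FPKM in Cdk8Tg against 81.3 and 78.2 FPKM in WT (1.13 ± 0.09, limma adjusted p = 0.0037). Casp6, an effector caspase, was at 18.3 and 14.7 against 6.92 and 6.59 FPKM (1.16 ± 0.12, adjusted p = 0.0065). Both more than doubled with no overlap between the groups. The mitochondrial reductase gene Fdxr and the antiproliferative gene Btg1 rose by 0.74 and 0.69, and the epoxide hydrolase gene Ephx1 by 0.78. Bax, which permeabilises the mitochondrial outer membrane, was at 33.7 and 35.1 FPKM against 24.2 and 23.4 FPKM (0.51 ± 0.08, limma adjusted p = 0.013). The calls of Bax, Fdxr and Ephx1 were lost without either WT library (limma adjusted p between 0.057 and 0.13), that of Casp6 without WT replicate 2 (0.054), and that of Btg1 without Cdk8Tg replicate 2 (0.068) or WT replicate 2 (0.093). With no filter on low values Btg1 (0.062) and Ephx1 (0.086) were not called either.

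Cdkn1a, which encodes the cell cycle inhibitor p21 and is the best known p53 target, was at 19.3 and 35.1 FPKM (Cdk8Tg) and 11.2 and 13.8 FPKM (WT). The groups did not overlap, and Cdk8Tg replicate 2 was well above replicate 1. The change of 1.02 ± 0.27 passed the threshold narrowly (limma adjusted p = 0.049). It missed it in 9 of 14 alternative fits, among them median-of-ratios scaling (0.074), quantile normalization (0.079), no filter (0.13) and leaving out Cdk8Tg replicate 2 (change 0.60, adjusted p = 0.069), WT replicate 1 (0.18) or WT replicate 2 (0.14). Bbc3, the death gene that encodes Puma, was likewise just called (0.70 ± 0.18, limma adjusted p = 0.046). Its call ended after median-of-ratios scaling (0.071), with quantile normalization (0.10), with no filter (0.105) and without Cdk8Tg replicate 2 (0.136), WT replicate 1 (0.172) or WT replicate 2 (0.095). Gadd45a, a growth arrest gene, was at 9.50 and 7.24 FPKM in Cdk8Tg against 10.1 and 10.4 FPKM in WT, with no call (-0.27 ± 0.13, adjusted p = 0.18). Siva1, an adaptor in death signalling, was the 1 fall in the list and is named after its value was seen (27.4 and 19.5 FPKM in WT, 13.8 and 13.9 in Cdk8Tg; -0.70 ± 0.16, limma adjusted p = 0.034). Siva1 lost that call with no filter (0.096) and without Cdk8Tg replicate 1 (0.082), Cdk8Tg replicate 2 (0.095) or WT replicate 1 (0.086). Fibroblast markers were higher beside these rises, with 6 of 8 called and summed levels of 1115 and 1430 FPKM in Cdk8Tg against 904 and 839 FPKM in WT. The count was 4 after median-of-ratios scaling, 5 with quantile normalization and 8 on the equal-sum scale. Of all rows, 7.96%, 8.34% and 41.2% were called higher there. With no filter it was 1, beside 3.57% of all rows. The median change of the fibroblast markers was 0.57 with all 4 libraries. It was 0.64 and 0.52 without Cdk8Tg replicate 1 and 2, and 0.68 and 0.58 without WT replicate 1 and 2. Leukocyte markers were lower in 3 of 7 tested, with a median change of -0.52, and 0 of 8 endothelial markers were called. Leaving out the libraries in the same order gave leukocyte medians of -0.27, -0.58, -0.49 and -0.54. With all 4 libraries on the deposited scale, 16.9% of all rows were called higher and 7.98% lower. The part of fibroblasts, leukocytes and endothelial cells in the rises was not tested.

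**Figure D4:**
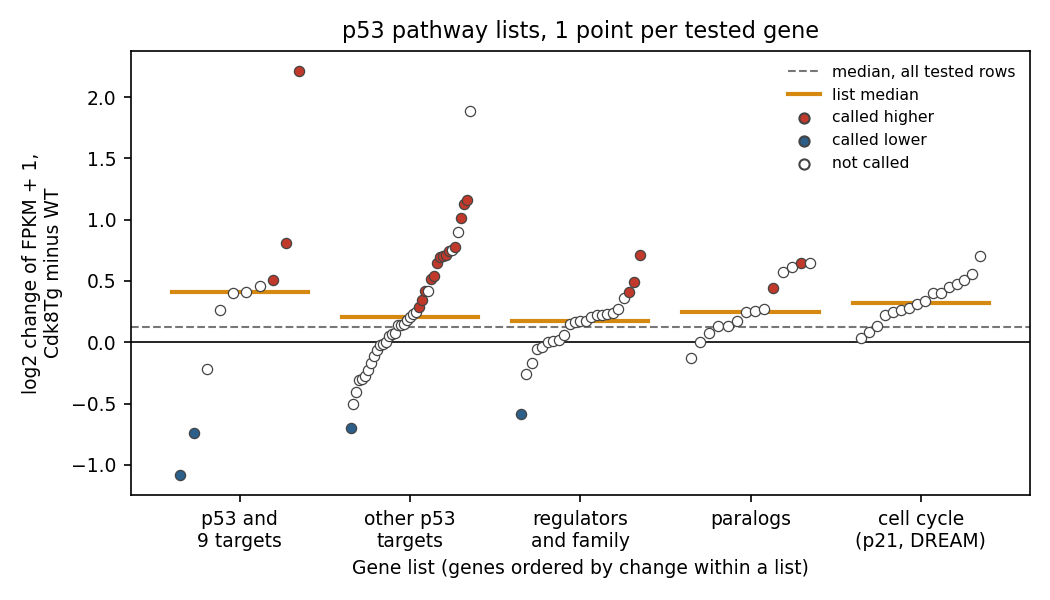
Change of every tested gene (log2 of FPKM + 1, Cdk8Tg minus WT) in 5 lists, ordered within each list; red and blue points were called higher and lower, orange bars are list medians and the dashed line is the median of all tested rows (0.13). The rises in the list of other p53 targets outnumber its falls 14 to 1, and no cell cycle gene was called on the deposited scale.

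Genes that control p53 were read from a further list. Of 28 regulators and relatives, 23 were tested, 3 rose and 1 fell, shares near those of all rows, and the median change was 0.17. On the equal-sum scale 11 rose and 0 fell, where 41.2% of all rows were called higher. The rises were Prkdc, the DNA-dependent protein kinase (0.71 ± 0.11, limma adjusted p = 0.014), Rchy1, a ubiquitin ligase for p53 (0.49 ± 0.09, adjusted p = 0.019), and Trp53bp1, a DNA damage mediator (0.41 ± 0.11, adjusted p = 0.049). Ppp1r13l, which encodes the p53 inhibitor iASPP, fell from 5.53 and 6.87 FPKM to 4.28 and 3.33 FPKM (-0.58 ± 0.15, limma adjusted p = 0.044). The call of Trp53bp1 ended after median-of-ratios scaling (adjusted p = 0.13), that of Ppp1r13l on the equal-sum scale (0.065), those of all but Prkdc without Cdk8Tg replicate 2, and all 4 calls without either WT library or with no filter on low values. The family genes Trp63 and Trp73 were below the filter, with Trp73 listed at 0 in 3 of the 4 libraries. The kinase genes Atm and Atr were at 2.59 to 3.56 FPKM and 3.26 to 4.70 FPKM, without a call.

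Among 20 cell cycle genes that p53 is known to repress through p21 and the DREAM complex, 16 were tested. Of these limma called 0, beside 16.9% of all rows called higher and 7.98% lower, while 2 had an unadjusted p under 0.05, against 41.6% of all rows. Their median change was 0.32, beside 0.13 for all rows, and it ranged from 0.11 without WT replicate 2 to 0.58 without WT replicate 1. On the equal-sum scale 2 of the 16 rose, where 41.2% of all rows were called higher. Of the 16, 1 gene had a mean of at least 5 FPKM, Cenpa, at 20.2 and 17.6 FPKM in Cdk8Tg against 16.3 and 13.4 FPKM in WT. The levels of the others were low, for example 1.61 and 2.60 FPKM for Ccnb1 in Cdk8Tg against 1.38 and 0.489 FPKM in WT. Among the immediate early genes, read here because Plk2 is also induced by serum, 2 of 15 tested fell (Dusp1 and Zfp36) and 0 rose. The share of falls was 13.3%, beside 7.98% of all rows called lower and 16.9% called higher. Both calls held under the other 3 scalings. The count of falls was 3 after median-of-ratios scaling, 3 with quantile normalization and 2 on the equal-sum scale. Of all rows, 11.7%, 8.74% and 5.49% were called lower there. Both calls ended without either WT library, and that of Zfp36 also without either Cdk8Tg library and with no filter on low values (limma adjusted p = 0.062). The phosphatase gene Dusp1 was at 34.6 and 36.0 FPKM with the transgene against 48.2 and 49.6 FPKM in WT. Among 14 tested paralogs of the members, Sesn2 and Sesn3 were the calls, a share of 14.3% near the 16.9% of all rows. The list of paralogs had 0 calls after median-of-ratios scaling or quantile normalization, where 7.96% and 8.34% of all rows were called higher. It had 6, all higher, on the equal-sum scale, beside 41.2% of all rows. Phlda1 was at 18.7 and 12.2 FPKM against 10.1 and 8.58 FPKM (0.65 ± 0.20, adjusted p = 0.071), Phlda2 was listed at 0 in all 4 libraries, and Plk3 was at 0.954 to 1.57 FPKM with overlapping groups.

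Phlda3 lies between 2 other genes that rose. Genes within 60 kb of each member in the authors' table were examined after the values of the members were seen. Of 16 tested neighbours of 6 members, 4 rose and 1 fell, against 16.9% and 7.98% of all rows. Csrp1, which encodes a LIM domain protein of muscle, ends 13.9 kb before Phlda3 on the same strand and was at 65.8 and 94.8 FPKM in Cdk8Tg against 38.4 and 33.9 FPKM in WT (1.11 ± 0.18, limma adjusted p = 0.015). Tnni1, which encodes troponin I of slow skeletal and fetal muscle, begins 30.3 kb after Phlda3 on the same strand and was at 255 and 226 FPKM against 1.51 and 0.789 FPKM (6.83 ± 0.17, adjusted p = 2.4e-04). Lad1, 49.5 kb beyond Phlda3, was at 2.18 and 0.852 FPKM against 1.65 and 1.07 FPKM and was not called. Csrp1, Phlda3 and Tnni1, consecutive genes of the authors' table, were thus called higher and the next was not. Tnni1 kept its call in all 14 alternative fits, while Csrp1 lost it with no filter on low values (0.061) and without WT replicate 1 (0.065) or WT replicate 2 (0.094).

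Sesn1 also had a neighbour that moved with it. Armc2 ends 6.6 kb beyond Sesn1 on the opposite strand and fell from 2.15 and 3.21 FPKM in WT to 1.21 and 1.27 FPKM in Cdk8Tg (-0.70 ± 0.17, limma adjusted p = 0.039). In both genes WT replicate 2 was the highest library. The call of Armc2 ended with no filter (0.094) and without any 1 of the 4 libraries (0.058 to 0.17). Cep57l1, which starts 0.7 kb from Sesn1 on the other strand, was at 1.91 and 1.75 FPKM in Cdk8Tg, beside 1.56 and 2.00 in WT (0.03 ± 0.14, adjusted p = 0.88). Wrap53, which starts 1.0 kb from Trp53 in the opposite direction, was at 2.74 and 3.47 FPKM in Cdk8Tg against 3.20 and 2.81 FPKM in WT, also without a call (adjusted p = 0.88). Efnb3, an ephrin ligand gene 20.1 kb from Trp53, was called higher (28.1 and 22.4 against 15.9 and 16.0 FPKM; 0.62 ± 0.12, limma adjusted p = 0.023). Ints8, a subunit gene of the Integrator complex, was the remaining rise (0.47 ± 0.12, limma adjusted p = 0.039). In the authors' table its locus begins 17.0 kb beyond Trp53inp1, at the same base as that of Ccne2, so the distance of Ints8 itself is uncertain. The Ints8 start site lies 97818 bases downstream of that of Trp53inp1. The calls of Efnb3 and Ints8 ended after median-of-ratios scaling (0.054 and 0.087), with quantile normalization (0.052 and 0.10), with no filter (0.068 and 0.092) and without either WT library, and that of Ints8 also without Cdk8Tg replicate 2 (0.12).

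**Figure D5:**
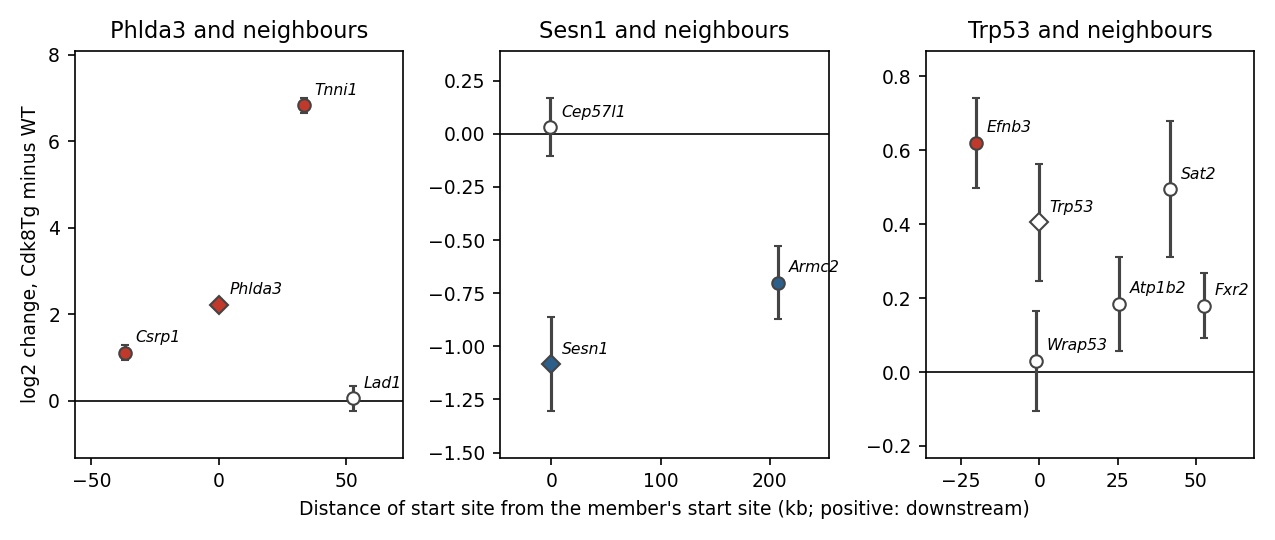
Change (log2 of FPKM + 1, Cdk8Tg minus WT, with SE) of Phlda3, Sesn1 and Trp53 (diamonds) and of the tested genes within 60 kb (circles) against the distance between start sites; red was called higher, blue lower and white not called, and each panel has its own vertical scale. Phlda3 sits between Csrp1 and Tnni1, both called higher.

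p53 binds DNA at a pair of 10-base units, each built around a core of C and G with A or T between them. The p53 consensus unit was searched for, on both strands, in the RefSeq promoter windows of GRCm38.p6, which run from 250 bases before to 50 after a start site (300 bases). Windows existed for 7 of the 10 members, with 8 start sites (Phlda3, Mdm2, Ccng1, Trp53, Plk2, Eda2r and, with 2, Sesn1). An exact unit was present in 4 of these 8 windows, against 8.36% of 32851 windows of the whole table. A pair of units with at most 2 mismatches in all and a spacer of at most 13 bases was present in 2 of the 8, against 10.1% of all windows. The stretches below carry the match in capitals, a pair for Ccng1 and Sesn1 and a single unit for Mdm2 and Trp53, and are shown to set the promoter letters beside the direction of each gene.
Ccng1, chr11:40755457-40755486, minus strand: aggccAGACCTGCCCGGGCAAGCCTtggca
Sesn1, second start, chr10:41887250-41887279, plus strand: tggGCGCTTGGCCTTCAAGCTTGTTTttgc
Mdm2, chr10:117710925-117710954, minus strand: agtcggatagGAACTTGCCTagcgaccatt
Trp53, chr11:69580274-69580303, plus strand: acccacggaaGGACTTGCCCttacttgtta

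The closest match to the full element was that of Ccng1, with 1 mismatch and no spacer, from 195 to 176 bases before the start site. Only 1.09% of all windows held a pair that close. The pair at the second Sesn1 start had 2 mismatches and a spacer of 3 bases. Ccng1 was not called and Sesn1 fell, whereas of the 3 members that rose, Mdm2 held an exact unit and Phlda3 and Eda2r held none. A match in these windows is a description of the letters only, and p53 binding outside them, such as in introns, was not examined.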

How the data were processed

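Per the labels, polyadenylated RNA of ventricle was sequenced from stranded TruSeq libraries. TopHat (version 1.0.0), the mm10 build, Cufflinks and Cuffdiff are named in the submitters' processing notes. The sources used here do not give the versions of the last pair, the annotation, the strand setting or the scaling between libraries. The authors deposited FPKM per gene and library, and a second table with an FPKM per group, a p-value and a q-value from Cuffdiff. Its group FPKM were 1.27 (WT) and 1.14 (Cdk8Tg) times the library means (medians over 11687 genes), a shift of -0.16 in log2 change.

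limma 3.58.1 (R 4.3.3) was run on log2(FPKM + 1) over the rows with a mean of at least 1 FPKM, with trended empirical Bayes variance, 2 residual degrees of freedom and no covariates. The pseudocount understates changes of low genes. Promoter sequences came from RefSeq. The members, the lists and the rule for named genes (all members, up to 6 called genes per list by smallest p, and set paralogs and targets) were chosen with earlier results of these data known. Between libraries of the same replicate number, deviations from the group means had a correlation of -0.03 across genes. With 2 libraries per group this cannot show whether the libraries were paired, and no pairing was assumed. The procedure was tested on simulated data.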

Additional observations from a re-analysis of the deposited data

How the results depend on the processing

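With 2 libraries per group, single libraries decide many calls: leaving out each in turn gave 287 to 2380 calls over all rows, against 2958, and 1 to 3 members higher and 0 to 2 lower. The 5 calls among the members kept their direction in every alternative, and Phlda3 kept its call. All rows gave 1055 calls with no filter, 5552 on the equal-sum scale and 1730 in the authors' deposited table. Members called higher numbered 6 on the equal-sum scale and 5 with the replicate number as a replicate block, beside 41.2% and 15.6% of all rows. The block added Trp53 (limma adjusted p = 0.048) and Plk2 (0.032), and the main fit assumed no such pairing. Members called lower numbered 1 with no filter and 3 with median-of-ratios factors, beside 2.31% and 11.7% of all rows. The median change of the members was 0.25 with a pseudocount of 5, 0.27 after median-of-ratios scaling, 0.29 with quantile normalization, 0.58 on the equal-sum scale and 0.28 in the authors' deposited table, against 0.41. Apart from the shift by each scaling and the larger number of rows without a filter, the cause was not tested. Zmat3 and Eda2r fell below a minimum of 5 FPKM and have no value there.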
